A study of Mus musculus with 4 samples.

Results

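The regions described here are the annotated exon-exon junctions that lie within 10 Mb of Hnrnpl on mouse chromosome 7, the gene that encodes the RNA-binding protein hnRNP L. They were taken from the deposited junction tables as every junction marked known that starts at or after 19595909 and ends at or before 39607285, leaving out the 12 junctions of Hnrnpl itself. This gave 2829 junctions of 331 genes, out of 186874 known junctions and 22011 genes in all. The sources used here do not name the genome build. The choice used position only and no read count, but it was made with earlier results of these data known.

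The study sequenced RNA from fetal liver cells of wild-type mice (WT, 2 libraries) and hnRNP L -/- mice (KO, 2 libraries). Ribosomal RNA was removed, the rest was cut with RNase III, and the libraries were barcoded. The growth notes name C57BL/6, LckCre transgenic, CD45.1 and Gt(ROSA)26Sortm4(ACTB-tdTomato,-EGFP)Luo mice as animals that were bought or bred, without saying which of them gave these livers. The sources used here do not state the kind of deletion, the strain in which it was made, the embryonic day or the litters. The titles only number the samples, and no label says whether the 2 of a group came from separate embryos. The 2 KO libraries differ in sex-linked transcripts, as given below, so they were not repeats of the same sample. For the WT libraries this is open, so the p-values rest on a spread between libraries that may in part be technical.

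A splice junction read joins the end of 1 exon to the start of the next, so it counts spliced transcript only. hnRNP L is a nuclear protein that binds CA-rich RNA, and it can favour or block the use of nearby exons. The stretch of chromosome 7 around its gene holds the apolipoprotein cluster with Apoe, the hepcidin gene Hamp, many zinc finger genes, and genes of DNA repair, mitochondria and blood cells. In fetal liver, hepatocytes grow beside a large population of developing red cells.

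The results turn on a few junctions, whose exon sequences are printed so that the place of each change can be seen. Each line gives 30 bases of the upstream exon in lower case and 30 bases of the downstream exon in capitals, 5′ to 3′ on the strand of the gene, read from GENCODE M21 transcripts of GRCm38. The exons were matched to the deposited junctions by gene symbol and by an intron length found once in the gene, and 2718 of the 2829 junctions (96.1%) matched in this way. The first 3 lines are consecutive junctions of Gpi1, of which the middle one lost its reads in KO.
Gpi1 exons 2 and 3: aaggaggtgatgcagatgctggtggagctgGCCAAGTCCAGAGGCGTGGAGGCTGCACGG
Gpi1 exons 3 and 4: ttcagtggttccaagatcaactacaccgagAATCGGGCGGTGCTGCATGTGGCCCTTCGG
Gpi1 exons 4 and 5: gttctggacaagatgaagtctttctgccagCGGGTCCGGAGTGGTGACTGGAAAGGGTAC
Haus5 exons 2 and 3: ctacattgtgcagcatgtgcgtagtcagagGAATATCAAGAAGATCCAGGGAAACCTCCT
Haus5 exons 5 and 6: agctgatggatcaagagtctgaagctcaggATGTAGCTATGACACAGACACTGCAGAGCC
Blvrb exons 2 and 3: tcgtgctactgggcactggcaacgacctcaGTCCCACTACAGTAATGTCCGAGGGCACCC
Hpn exons 8 and 9: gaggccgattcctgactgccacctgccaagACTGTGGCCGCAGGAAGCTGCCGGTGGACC
Hamp exons 1 and 2: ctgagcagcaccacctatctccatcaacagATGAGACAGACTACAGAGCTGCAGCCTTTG
All 8 stretches are coding in that annotation. The letters CACA, read on the gene's strand, are in the stretch of Haus5 exons 5 and 6 and in none of the other 7. They are in 307 of 1357 matched junctions with at least 10 reads (22.6%), which is a description of the letters and not of binding. The GC content was 56.7% for Gpi1 exons 3 and 4 and 50.0% for Haus5 exons 5 and 6, beside a median of 55.0% over the 1357.

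The libraries held 70020061 to 111324295 mapped reads and 4875332 to 8624429 reads on known junctions. Hnrnpl was at 460 and 603 counts per 1000000 reads (CPM, scaled by library composition) in WT and at 280 and 269 CPM in KO, so transcript of the targeted gene remained in both KO libraries. KO replicate 2 held 336 reads of Xist, a female-specific transcript, against 31498 to 51618 in the other 3 libraries, and 2839 reads of the Y-linked Ddx3y against 5 to 14. The summed level of 7 hepatocyte markers was 34362 to 48497 CPM in WT and 59341 to 70717 CPM in KO (1 of 7 passed the gene test, higher). That of 8 erythroid markers was 34417 to 37955 CPM in WT and 16814 to 22607 CPM in KO (6 of 8 lower). None of these markers was at 0 reads, and in bulk samples fewer cells of a type and less RNA per cell cannot be told apart. The 5 cardiac muscle markers summed to 51.3 and 202 CPM in WT and 3.38 and 5.58 CPM in KO (5 of 5 lower). Markers of granulocytes (3 of 4) and megakaryocytes (3 of 4) were higher in KO, those of B lymphoid cells were lower (3 of 5), and those of macrophages were mixed (1 of 5 higher, 2 lower). Over all 15028 genes tested, 11.4% were higher and 9.44% lower.

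Of the 2829 junctions near Hnrnpl, 1980 had a read in at least 1 library and 849 had none. Between 1 and 9 reads over the 4 libraries fell on 582 of them, and 1398 had 10 reads or more and could be tested. They lie on both sides of Hnrnpl, with 1575 before it and 1254 after it. Their introns had a median length of 718 nt, against 1366 nt over all known junctions. The junctions took 51188 and 89639 reads in WT replicates 1 and 2 and 81830 and 76885 reads in KO replicates 1 and 2. This was 1.05% and 1.04% of known junction reads in WT and 1.14% and 1.11% in KO, so both KO libraries lay above both WT libraries. The difference of the means was 0.0814 percentage points (exact permutation test, two-sided, p = 0.33, the smallest p that 2 against 2 libraries allow).

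The most used junctions near Hnrnpl belong to genes of blood plasma, red cells and the ribosome. Joining of exons 3 and 4 of Apoe, the apolipoprotein E gene, was read 1868 and 2429 times in WT and 4714 and 3036 times in KO. Joining of its exons 1 and 2 was read 1472, 1960, 3051 and 2065 times. In Blvrb, which encodes a biliverdin reductase abundant in red cells, exons 3 and 4 were joined in 2319 and 3260 reads in WT and 1993 and 1370 in KO. Exons 1 and 2 of Blvrb gave 1607, 2173, 1689 and 895 reads. Exons 2 and 3 of Rps19, a protein of the small ribosomal subunit, gave 1402, 1938, 1271 and 1421 reads. None of these 5 junctions passed the test of reads (edgeR quasi-likelihood adjusted p of 0.233 to 0.744), while that of Blvrb exons 3 and 4 was lower with limma voom (adjusted p = 0.00977) and DESeq2 (0.0382). The 3 longest introns crossed by at least 10 reads were 49261 nt in Pepd, a peptidase for proline dipeptides, 42950 nt in Actn4, an actin-crosslinking protein, and 28168 nt in Pak4, a kinase. The Pepd junction had 17, 25, 20 and 14 reads, and none of the 3 passed either.

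Use of single junctions was compared as the share of a gene's tested junction reads that falls on each junction, which takes the level of the gene out. The test ran on 103312 known junctions of all chromosomes, and 2 of them passed at an adjusted p under 0.05, which is 0.00194%. By gene, 2 of 10689 passed (0.0187%). Both junctions lie near Hnrnpl, where 1366 junctions of 172 genes were tested, and no junction elsewhere passed. Only the Gpi1 junction passed near Hnrnpl with WT replicate 2, KO replicate 1 or KO replicate 2 left out, and in the last case 1 junction elsewhere passed too. The third and the fourth smallest p of all 103312 were also on junctions near Hnrnpl, in Blvrb and again in Haus5. At an unadjusted p under 0.05 the count was 50 of 1366 (3.66%) near Hnrnpl and 2455 of 103312 (2.38%) in all.

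**Figure D1:**
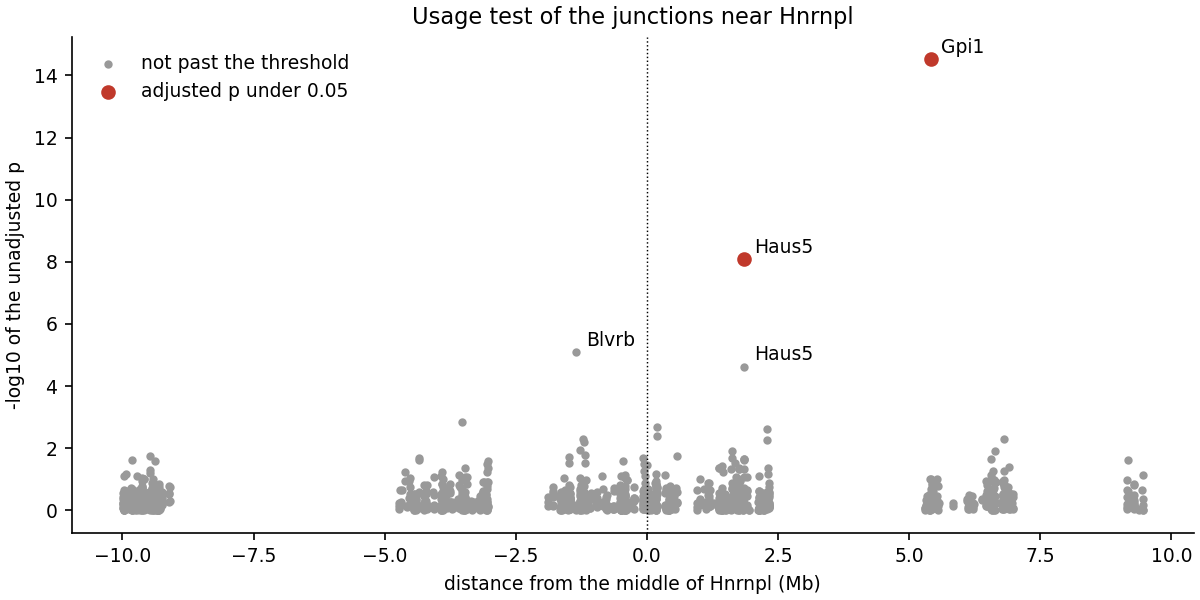
Usage test of each tested junction near Hnrnpl. The x axis is the distance of the junction from the middle of Hnrnpl in Mb, the y axis is -log10 of the unadjusted p, red points passed the adjusted threshold of 0.05 and the 4 labelled junctions have the smallest p. The Gpi1 junction at 5.41 Mb and 1 Haus5 junction at 1.85 Mb stand above all others.

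The junction with the strongest change joins exons 3 and 4 of Gpi1 (chromosome 7, 35012256 to 35013947, minus strand, intron of 1690 nt), the third of its 17 known junctions. Gpi1 encodes glucose-6-phosphate isomerase, an enzyme of glycolysis. The junction was read 89 and 217 times in WT and 13 and 4 times in KO. It made up 8.97% and 9.89% of the gene's junction reads in WT and 0.541% and 0.136% in KO, so the groups did not overlap. Its use fell by 4.87 on the log2 scale (edgeR diffSpliceDGE, adjusted p = 3.11e-10). The reads themselves were at 0.0532 of WT per known junction read (exact 95% counting interval 0.0306 to 0.0866).

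The junctions on either side of it did not follow. Joining of Gpi1 exons 2 and 3 was read 35 and 66 times in WT and 79 and 133 times in KO, and joining of exons 4 and 5 was read 97, 122, 153 and 280 times. Exon 3 and exon 4 therefore each kept reads on their other side in KO. Over the other 16 junctions of Gpi1 the log2 change of use lay between -0.38 and 0.74, and none passed. The gene table read the whole transcript at 92.7 and 116 CPM in WT and 175 and 183 CPM in KO, a 1.71-fold rise (edgeR quasi-likelihood, adjusted p = 0.0124). Putative junctions, which the authors list beside the known ones and which span this intron, had 0 and 3 reads in WT and 1 and 0 in KO. No other known junction shares a start or an end with this one. A junction is counted only where reads align across it, and the tables hold no bases of the reads. A loss of splicing and a failure of reads to align, as sequence differences between the strains of the WT and KO animals near the targeted gene could give, therefore cannot be told apart for this junction or for those of Haus5 described next.

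Haus5 encodes a subunit of augmin, the complex that lets new microtubules branch from those of the mitotic spindle. Its junction between exons 5 and 6 (chromosome 7, 31446807 to 31446888, minus strand, intron of 80 nt) was read 28 and 67 times in WT and 1 and 0 times in KO. That was 6.67% and 8.44% of the gene's junction reads in WT and 0.254% and 0% in KO. Use fell by 5.64 on the log2 scale (edgeR diffSpliceDGE, adjusted p = 4.20e-04), and the reads were at 0.0101 of WT (exact 95% counting interval 0.000253 to 0.0576). That call of use ended when WT replicate 2 (edgeR diffSpliceDGE, adjusted p = 0.164), KO replicate 1 (0.0671) or KO replicate 2 (0.839) was left out, and with limma's diffSplice (1.00). The call of the Gpi1 junction held in all of these. The fall in reads on this Haus5 junction passed with each library left out (edgeR quasi-likelihood, adjusted p up to 5.11e-04) and missed the threshold with limma voom (0.0587).

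A second junction of Haus5, between exons 2 and 3 (31448146 to 31448242), had 7 and 31 reads in WT and 0 and 0 in KO. With a floor of 3 reads over the KO group, it was at least 13.2-fold lower per known junction read. It passed the test of reads (edgeR quasi-likelihood, adjusted p = 0.0201) but not the test of use (edgeR diffSpliceDGE, adjusted p = 0.609). Its fall in reads did not pass with KO replicate 1 left out (edgeR quasi-likelihood, adjusted p = 0.0903) or KO replicate 2 left out (0.128), and without WT replicate 2 it had too few reads to test. The junction that follows it, between exons 3 and 4, was read 1, 3, 0 and 0 times and was too low to test. The next one, between exons 4 and 5, was read 34 and 61 times in WT and 47 and 38 times in KO. On the other side of the junction between exons 5 and 6, the junction of exons 6 and 7 was read 18 and 54 times in WT and 7 and 11 times in KO (ratio 0.258 per known junction read), and it passed neither the test of reads (edgeR quasi-likelihood, adjusted p = 0.150) nor that of use (edgeR diffSpliceDGE, adjusted p = 1.00, unadjusted 0.0233). The junction of exons 7 and 8 was read 49, 124, 98 and 103 times. That of exons 12 and 13 was read 33, 89, 21 and 16 times (ratio 0.307) and did not pass either (edgeR quasi-likelihood, adjusted p = 0.0952). The transcript as a whole was at 23.9 and 29.4 CPM in WT and 19.5 and 16.9 CPM in KO, lower by 0.55 on the log2 scale with SE 0.15 (edgeR quasi-likelihood, adjusted p = 0.0413). That call was lost with any 1 library left out (adjusted p of 0.0520 to 0.240). Putative junctions over the intron between exons 5 and 6 had no read in any library.

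**Figure D2:**
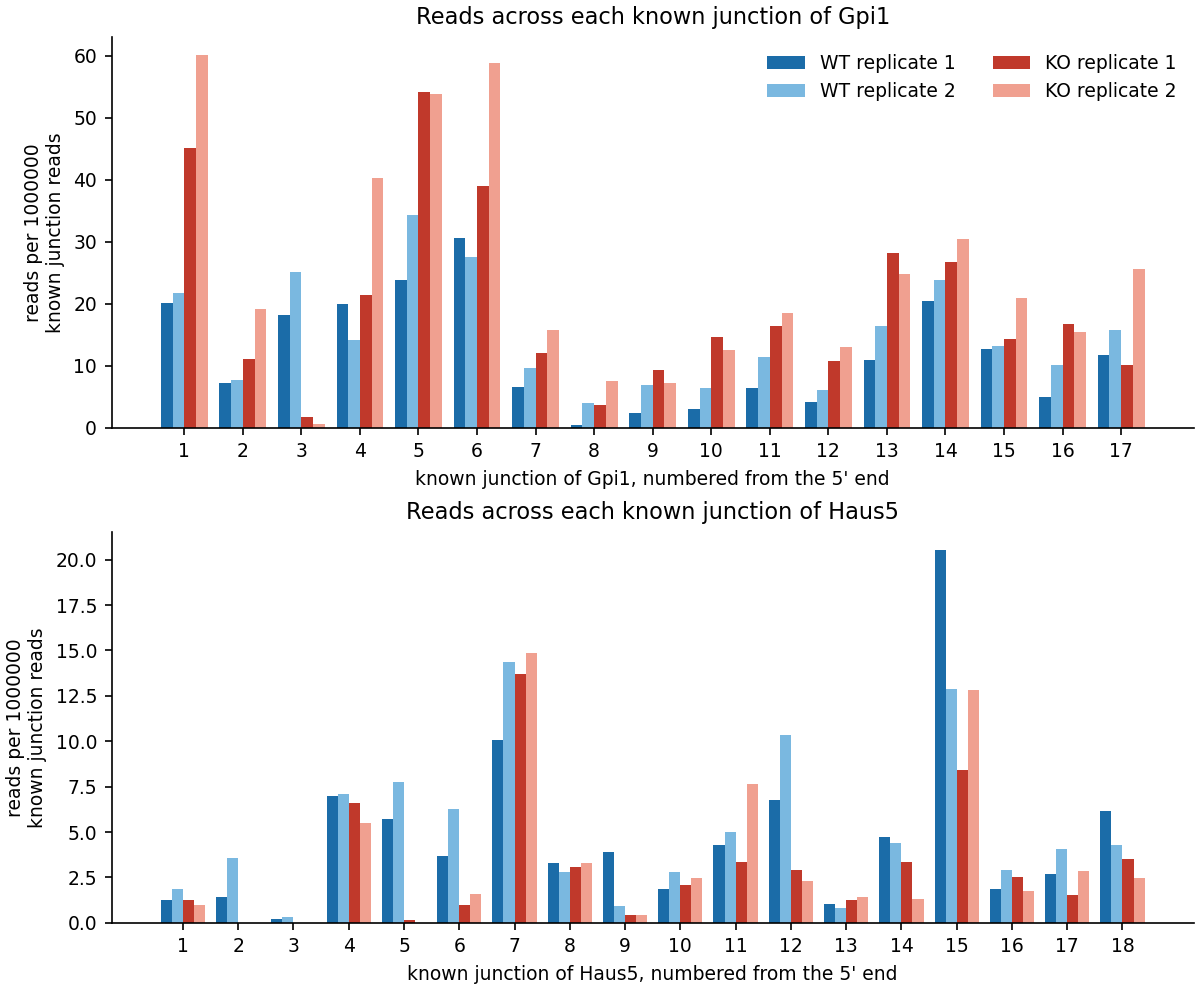
Reads per 1000000 known junction reads (y axis) on each known junction of Gpi1 and Haus5, numbered from the 5′ end (x axis); each bar is 1 library, WT in blue and KO in red. Junction 3 of Gpi1 is at 18.3 and 25.2 in WT and 1.82 and 0.576 in KO while its neighbours are as high or higher in KO, and junctions 2 and 5 of Haus5 are near or at 0 in KO.

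In Blvrb the direction was the opposite. The junction of exons 2 and 3 (28244439 to 28244582) was read 30 and 96 times in WT and 181 and 116 times in KO, or 0.623% and 1.33% of the gene's junction reads against 3.75% and 3.83%. The junctions before and after it carried far more reads in every library, as given above. Its use was 1.97 higher on the log2 scale and did not pass (edgeR diffSpliceDGE, adjusted p = 0.271). The gene itself was at 599 and 552 CPM in WT and 353 and 253 CPM in KO, and it fell by 0.92 on the log2 scale (edgeR quasi-likelihood, adjusted p = 0.0164). The most read junction that skips part of Blvrb, a putative one from exon 2 to exon 4, had 5, 5, 3 and 1 reads.

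Reads per junction, without regard to the gene, were tested on the 1398 junctions with at least 10 reads. Of these 12 passed, 8 higher and 4 lower in KO, which is 0.858% beside 0.274% of 104561 junctions over all chromosomes (0.202% higher, 0.0717% lower). DESeq2 called 11, of which 10 were higher and 1 lower, but it gave an adjusted p to only 3 of these 12 junctions (2 in Hpn and 1 in Prodh2, all 3 called). It gave none to the other 9, among them those of Gpi1, Haus5, Hamp and Map4k1, so 8 of its 11 calls were other junctions. All 12 are named here after their values were seen. Besides the Gpi1 junction and both Haus5 junctions, the fourth that was lower joins exons 29 and 30 of Map4k1, a kinase of blood cells that limits antigen receptor signals. It was read 25 and 155 times in WT and 25 and 12 times in KO. The WT libraries were far apart, and the call ended with WT replicate 2 left out (edgeR quasi-likelihood, adjusted p = 0.426) or KO replicate 2 left out (0.256). The last junction of Map4k1, between exons 31 and 32, was read 27 and 30 times in WT and 7 and 1 times in KO and did not pass (0.0685).

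The 8 junctions that were higher belong to 3 genes of the hepatocyte and its metabolism. Hpn encodes hepsin, a serine protease of the hepatocyte surface, and 4 of its 14 known junctions passed. The most read of them (31894025 to 31894110) had 69 and 92 reads in WT and 319 and 214 in KO, a ratio of 3.17 per known junction read (exact 95% counting interval 2.65 to 3.81; edgeR quasi-likelihood, adjusted p = 0.0181). The one with the largest change in Hpn joins exons 8 and 9 and was read 1 and 3 times in WT and 33 and 35 times in KO (ratio 16.3, exact 95% counting interval 6.08 to 61.5). Its use within Hpn did not pass (edgeR diffSpliceDGE, adjusted p = 1.00). Prodh2 encodes a dehydrogenase that acts on hydroxyproline, and its junctions of exons 6 and 7 and of exons 7 and 8 passed. The former was read 26 and 43 times in WT and 132 and 117 times in KO, and the latter 38, 88, 200 and 161 times. All 6 calls in Hpn and Prodh2 ended with KO replicate 1 left out (edgeR quasi-likelihood, adjusted p of 0.0607 to 0.318), and each also ended with 1 or 2 of the other libraries left out in turn.

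Hamp encodes hepcidin, the peptide hormone by which the liver limits iron export from cells. Its 2 junctions both passed. Joining of exons 1 and 2 was read 0 and 1 times in WT and 106 and 34 times in KO (edgeR quasi-likelihood, adjusted p = 1.36e-05). Joining of exons 2 and 3 was read 0, 0, 40 and 6 times, at least 14.7-fold higher per known junction read with a floor of 3 reads over the WT group. The call of exons 1 and 2 held with each library left out (adjusted p up to 0.0102 in the same edgeR test), while exons 2 and 3 had too few reads to test without KO replicate 1. In the gene table Hamp was at 1.05 and 0.162 CPM in WT and 10.7 and 2.09 CPM in KO (edgeR quasi-likelihood, adjusted p = 0.0364), a call lost without WT replicate 2 or KO replicate 1 (adjusted p up to 0.185) and with DESeq2 (0.0736) or limma voom (0.0858). Hamp2, a near copy of Hamp in the same stretch, was listed with 0 reads in all 4 libraries, and reads shared by the copies make the split between them uncertain. KO replicate 1 was the higher of the KO libraries in each of these measures of Hamp.

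Losses and gains were also counted without a test, a count added after the data were seen. A junction was counted as lost if it had at least 30 reads in WT and at most 10% as many in KO. Near Hnrnpl 4 of 705 junctions with that many WT reads were lost, beside 57 of 53969 (0.106%) in all. These were the Gpi1 junction, both Haus5 junctions and 1 junction of Ckm, the muscle creatine kinase, with 2, 28, 0 and 0 reads. When only genes that kept at least 50% of their junction reads in KO were counted, 9 of 53695 junctions (0.0168%) were lost in all and 3 of the 9 lay near Hnrnpl, where 703 junctions could be lost. The other 6 were 1 each in Cdc42bpa, Ppp6r2, Zfand2b, Topbp1, Sik2 and Wdr8 on other chromosomes. Gains near Hnrnpl were 3 of 752, beside 86 of 58326 (0.147%) in all, and were the 2 junctions of Hamp and the Hpn junction of exons 8 and 9.

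Alternative splicing between annotated sites could be read in few places. Of the 2829 junctions, 158 share a start or an end with another known junction, and 44 of these had enough reads for the test of use. None passed. The minor junction with most reads was in Kcnn4, a calcium-activated potassium channel of red cells, where it took 8.33% and 10.3% of the reads at its site in WT and 9.03% and 7.16% in KO (Wilson 95% intervals from 5.14% to 12.6%, counting error only). In Sirt2, a protein deacetylase encoded within 250 kb of Hnrnpl, the minor junction took 29.7% and 19.2% in WT and 11.1% and 19.4% in KO. In Cic, a transcriptional repressor, it took 44.4%, 52.6%, 63.6% and 40%, from 9 to 25 reads. In each of these 3 genes the groups overlapped, as they did in Lsr, a lipoprotein receptor (45.5%, 14.3%, 4.35% and 30%). In Hpn the minor junction took 9.09% and 7.46% in WT and 12.7% and 20.5% in KO, from 31 reads, and the groups did not overlap. Nor did they in Gmfg, an actin regulator of blood cells, with 5.71% and 0% (0 of 42 reads, Wilson 95% upper limit 8.38%) in WT and 13.2% and 8.33% in KO, from 19 reads. How often the groups separate in this way over all junctions is not given here. In Hpn and in Gmfg the Wilson 95% interval of each WT library overlapped that of each KO library. Neither passed the test of use (edgeR diffSpliceDGE, adjusted p = 1.00 for both).

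Putative junctions near Hnrnpl had a read in 829 cases and at least 10 reads in 19. None had 10 or more KO reads and 0 WT reads. The reverse held for 2 of them, 1 in Phldb3 with 60 reads that were all in WT replicate 1, and 1 in Map4k1 with 2 and 13 reads. The latter runs from exon 30 to the last exon of Map4k1 and so skips 1 exon. The 19 include no putative junction of Gpi1 or Haus5.

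Levels of the same 331 genes were compared in the gene tables, where 250 had enough reads to be tested. Of these, 33 were higher and 14 lower in KO (18.8%), beside 20.8% of all 15028 genes tested (11.4% higher, 9.44% lower). Without scaling by library composition 46 were higher and 9 lower, and the median of all genes then moved from 0.02 to 0.11 on the log2 scale. On the rest of chromosome 7 the share was 19.2% of 876 genes. Genes near Hnrnpl thus passed about as often as genes elsewhere. The 47 calls fell to 27 when WT replicate 1 was omitted, to 17 for WT replicate 2 and to 19 for KO replicate 2. Their median log2 fold change was 0.12, against 0.02 over all genes. Calls fell on both sides of Hnrnpl, with 17 higher and 8 lower before it and 16 higher and 6 lower after it.

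**Figure D3:**
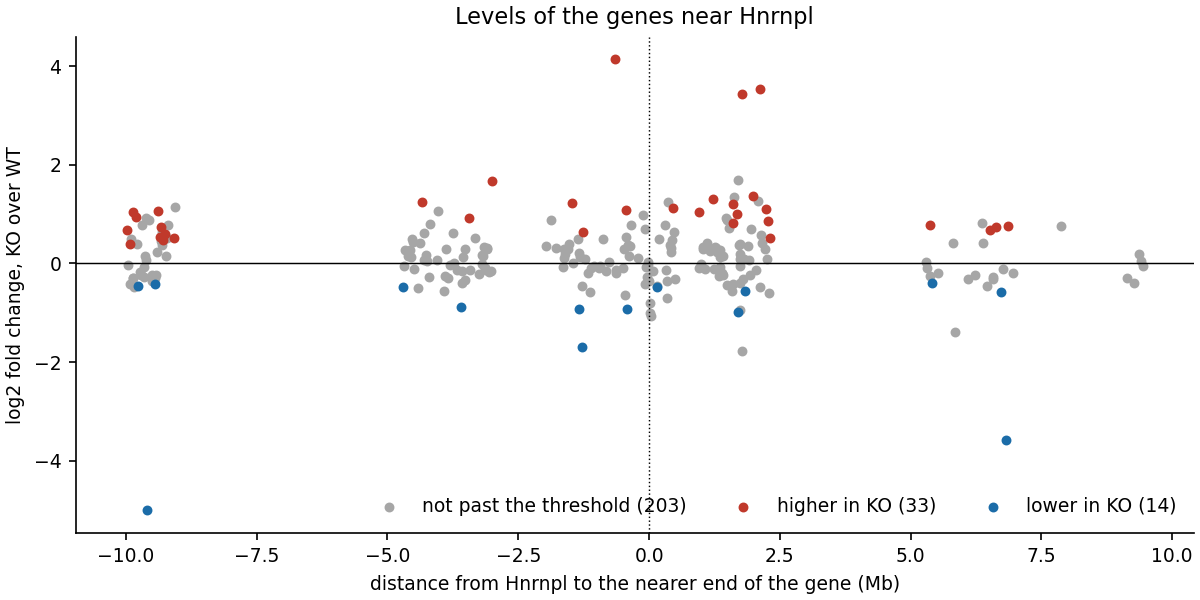
Log2 fold change of KO over WT (y axis) of the 250 tested genes near Hnrnpl against the distance from Hnrnpl to the nearer end of the gene in Mb (x axis). Red points were higher (33), blue points lower (14) and grey points did not pass (203). Called genes occur on both sides of Hnrnpl, and no gene could be tested between 2.5 and 5 Mb after it.

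Calls were no denser close to Hnrnpl. Within 1 Mb 4 genes were higher and 2 lower of 49 tested, which is 11.5% of the genes before Hnrnpl and 13% of those after it. Without scaling by library composition 8 were higher and 1 lower within 1 Mb. The 6 calls became 3 when either WT library was omitted and 1 for KO replicate 2. Between 5 and 10 Mb the share was 31.7% of 41 genes before it and 25% of 28 genes after it, and the difference was not tested. Among the 19 genes within 250 kb, 16 were tested, 1 passed and the median log2 fold change was -0.21. The gene that passed, Eif3k, encodes a subunit of translation initiation factor 3 and starts 149.1 kb after Hnrnpl. It was at 223 and 210 CPM in WT and 169 and 141 CPM in KO, and it fell by 0.48 on the log2 scale with SE 0.13 (edgeR quasi-likelihood, adjusted p = 0.0382). The call of Eif3k ended with WT replicate 1, WT replicate 2 or KO replicate 2 left out (adjusted p up to 0.156), and without scaling by library composition (0.0598).

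The genes that flank Hnrnpl did not pass. Ech1, an enzyme of fatty acid oxidation 3.072 kb away, was at 61.4 and 58.4 CPM in WT and 46.7 and 47.2 CPM in KO (edgeR quasi-likelihood, adjusted p = 0.0519, and 0.0459 by DESeq2). Rinl, an exchange factor for Rab5 on the other side, was at 15.8, 15.7, 14.9 and 17.1 CPM, and the groups overlapped. Sirt2 was at 54.3, 49.7, 53.6 and 48.3 CPM. Nfkbib, an inhibitor of NF-kappaB, was at 19.8, 18.7, 17.2 and 14.7 CPM, and Sars2, which charges mitochondrial serine tRNA, at 24.8, 21.8, 23.2 and 20.9 CPM. Mrps12, a protein of the mitochondrial ribosome, was at 31.5 and 33.0 CPM in WT and 26.1 and 22.1 CPM in KO (edgeR quasi-likelihood, adjusted p = 0.0568, and 0.0438 by DESeq2). On summed junction reads the log2 change was -0.02 for Ech1 (edgeR quasi-likelihood, adjusted p = 0.956) and -0.10 for Mrps12 (0.924). In the gene tables it was -0.35 and -0.42. Actn4 had the highest level of these neighbours at 578, 557, 549 and 474 CPM, and Pak4 was at 58.5, 58.8, 64.7 and 61.4 CPM. Map4k1 was at 23.8, 32.9, 20.3 and 20.7 CPM and passed only with WT replicate 1 left out (edgeR quasi-likelihood, adjusted p = 0.0428) among the 4 such fits. The galectin genes Lgals4, Lgals6 and Lgals7, the F-box genes Fbxo17 and Fbxo27 and the muscle calcium channel gene Ryr1 were below 4 CPM in every library and did not pass. C330005M16Rik, Gm6537 and Capn12 had too few reads to test.

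The gene list with the highest median was that of apolipoproteins and hepatocyte genes, at 0.60 with 5 of 14 tested members higher and 0 lower (25 in the stretch). The counts of this list and of those below stand beside 11.4% higher and 9.44% lower over all genes tested. No list was tested against these shares. Apoc2, which activates lipoprotein lipase, was at 150 and 116 CPM in WT and 263 and 180 CPM in KO, a 1.67-fold rise (edgeR quasi-likelihood, adjusted p = 0.0398) that was lost without WT replicate 2 or KO replicate 1 (adjusted p up to 0.157). Hpn was at 65.9, 49.5, 116 and 92.2 CPM, 1.81-fold higher (adjusted p = 0.0169 in the same edgeR test, and 0.0593 without WT replicate 2). The other 3 that rose were Hamp, Cyp2s1, a cytochrome P450 found mainly outside the liver, and Ffar2, a receptor for short-chain fatty acids. The calls of Cyp2s1 and Ffar2 were lost with any 1 library left out (adjusted p up to 0.229). Apoe was at 832 and 676 CPM in WT and 1418 and 926 CPM in KO and missed the threshold (edgeR quasi-likelihood, adjusted p = 0.0841). It passed with DESeq2 (adjusted p = 0.0120), without scaling by library composition (edgeR, 0.0284), with every gene of at least 1 read tested (0.00915) and with KO replicate 2 left out (0.0379). The hepatocyte markers given above were higher in KO as a sum too, and their part in these results was not tested. Per length, Apoe was the most abundant of the 331 genes with a mean of 382 reads per kilobase of transcript and 1000000 mapped reads (RPKM), followed by Blvrb with 249 and Apoc2 with 140.

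Among mitochondrial and metabolic genes 4 of 18 tested members were higher and 2 lower (median -0.05). Gpi1 and Prodh2 were among those that rose, Prodh2 from 58.7 and 44.4 CPM in WT to 113 and 93.2 CPM in KO, 2.00-fold (edgeR quasi-likelihood, adjusted p = 0.0107). The others that rose were Slc7a9, an amino acid transporter of the kidney, and Tomm40, the pore of the outer mitochondrial membrane, and both calls were lost with any 1 library left out (adjusted p up to 0.152). The 2 that fell were Blvrb and Nudt19, a peroxisomal hydrolase of coenzyme A, at 77.4 and 84.4 CPM in WT and 55.2 and 53.3 CPM in KO. The call of Nudt19 was lost without WT replicate 2 or KO replicate 2 (adjusted p up to 0.0679). Timm50, a subunit of the mitochondrial import channel, was at 90.5, 84.4, 84.5 and 79.4 CPM, with overlapping groups. The sum of erythroid markers was lower in KO, as given above, beside the fall of Blvrb, and its part in that fall was not tested.

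Of 26 genes of RNA processing and transcription, 1 was higher and 3 were lower (median -0.09). Zfp36, or tristetraprolin, which speeds the decay of AU-rich messenger RNAs, was at 6.44 and 5.56 CPM in WT and 12.4 and 12.8 CPM in KO, 2.11-fold higher (edgeR quasi-likelihood, adjusted p = 0.0100). Med29, a Mediator subunit, was at 10.4, 9.36, 5.56 and 4.76 CPM and fell by 0.93 on the log2 scale (adjusted p = 0.0164 in the same edgeR test, and 0.0655 without KO replicate 2). Eif3k and Pdcd5 were the others that were lower. On summed junction reads none of these 3 falls passed (edgeR quasi-likelihood, adjusted p = 0.766 for Med29, 0.119 for Eif3k and 0.254 for Pdcd5). The log2 change of Med29 was only -0.12 on its junctions. The most read members, Uba2, a subunit of the SUMO-activating enzyme, and Hnrnpul1, an hnRNP U-like protein, did not pass, at 203, 216, 196 and 194 CPM and at 164, 172, 140 and 158 CPM.

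Of 11 genes in the list of DNA repair and cell cycle, 0 were higher and 2 lower, Haus5 and Ckm, the latter a muscle gene that the list also holds. Ckm was at 0.619 and 7.20 CPM in WT and 0.188 and 0.0585 CPM in KO, so its WT level rested on WT replicate 2, the library with the highest sum of cardiac muscle markers. Its call held only without WT replicate 1, with the other 3 libraries left out in turn ending it (edgeR quasi-likelihood, adjusted p up to 0.144), and the part of muscle RNA in it was not tested. Ccne1, cyclin E1, was at 209, 252, 178 and 172 CPM (edgeR quasi-likelihood, adjusted p = 0.0664, and 0.0274 by DESeq2), and Ercc2, a helicase of nucleotide excision repair, was at 64.0, 71.1, 69.7 and 71.7 CPM. Rps19 was at 98.7, 106, 96.5 and 42.2 CPM, with KO replicate 2 alone low, and it passed only with KO replicate 1 left out (edgeR quasi-likelihood, adjusted p = 0.00692) among the 4 such fits, while its junction reads above show no such gap.

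Of 23 tested genes of blood and immune signalling, 4 were higher and 0 lower (median 0.28). Plaur, the urokinase receptor, was at 2.41 and 3.01 CPM in WT and 7.96 and 4.93 CPM in KO, 2.36-fold higher (edgeR quasi-likelihood, adjusted p = 0.0243, and up to 0.103 without WT replicate 1 or KO replicate 1). Nfkbid and Relb, both regulators in the NF-kappaB pathway, and Zbtb32, a zinc finger repressor with 1 read in each WT library, also passed. None of these 3 passed with a library left out (adjusted p up to 0.205). Granulocyte markers were higher in KO as well (3 of 4, with Prtn3 not passing at a log2 fold change of -0.33), and their part was not tested. Cebpg, Arhgef1 and Akt2, the most read members, did not pass. Of 19 tested genes of muscle, nerve and kidney, 5 were higher and 0 lower (median 0.49). Ltbp4, which binds latent TGF-beta in the matrix, was at 6.47, 6.39, 14.2 and 15.8 CPM, 2.33-fold higher (edgeR quasi-likelihood, adjusted p = 0.0072). Aplp1, a relative of the amyloid precursor protein, was at 9.13, 7.09, 19.3 and 18.1 CPM, and Fxyd1, a regulator of the sodium pump, at 13.6, 10.2, 30.2 and 20.8 CPM (adjusted p = 0.0633 without WT replicate 2 in the same edgeR test). Ppp1r14a, an inhibitor of myosin phosphatase, was also higher, and its call was lost with any 1 library left out (adjusted p up to 0.200).

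Of 18 genes in the list of proteasome, translation and chaperones, 2 were higher and 2 lower (median -0.15). The higher ones were Clptm1, at 186, 194, 300 and 250 CPM, and Eml2, a microtubule-binding protein, and the lower ones were Eif3k and Opa3, a mitochondrial protein. None of these 4 is a proteasome subunit or a chaperone, and each lost its call without WT replicate 1 (edgeR quasi-likelihood, adjusted p of 0.0860 to 0.132). Of 32 tested zinc finger genes, 2 were higher and 1 lower (median 0.04). The higher ones were Zfp30 and Zfp14. Zfp180 was the lower one, at 60.6 and 62.6 CPM in WT and 47.0 and 41.2 CPM in KO, and Zfp568 and Zfp146, the most read, did not pass. Each of the 3 calls was lost without WT replicate 2 and without KO replicate 2 (edgeR quasi-likelihood, adjusted p up to 0.189).

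Among genes with a mean of at least 2 on the log2 CPM scale and no overlap between groups, 12 rises and 11 falls were the largest. The other rise among them was Qpctl, a glutaminyl cyclase of the Golgi, from 3.50 and 4.01 CPM to 7.37 and 8.04 CPM. The other falls were Arhgap33, a GTPase-activating protein, at 13.3, 8.53, 5.18 and 5.75 CPM, Dedd2, a death effector domain protein, at 89.0, 75.2, 50.8 and 37.7 CPM, Lrrc68 and 4931406P16Rik. With each library left out in turn, Ltbp4, Aplp1, Zfp36, Prodh2 and Gpi1 among the rises and Blvrb and Dedd2 among the falls passed every time. The calls of Haus5, Nfkbid, Opa3, Lrrc68 and 4931406P16Rik were lost with any 1 library left out (adjusted p up to 0.240). Qpctl was lost without KO replicate 2, and Arhgap33 in all but 1 of the 4 cases, without WT replicate 2 being the exception. Groups did not overlap in 66.8% of the tested genes near Hnrnpl and in 65.2% of all tested genes.

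**Figure D4:**
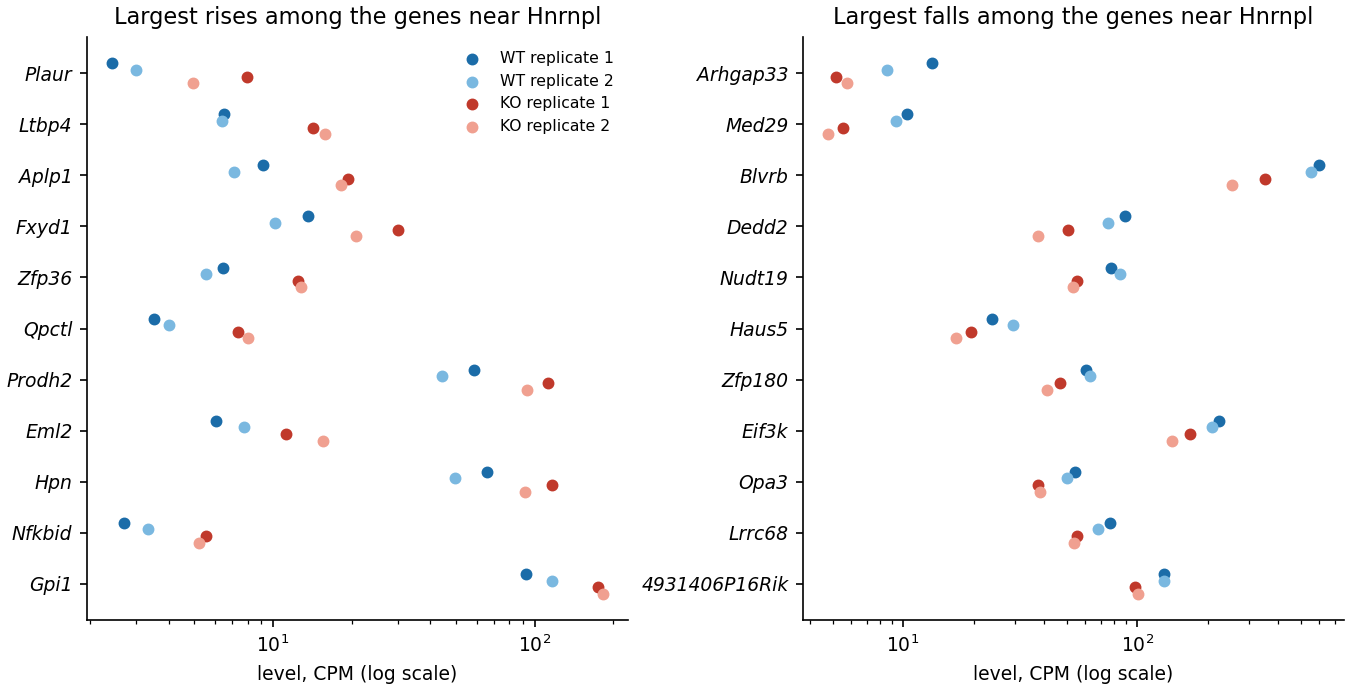
Level in CPM (x axis, log scale) of genes near Hnrnpl, 11 of the 12 that rose most (left) and the 11 that fell most (right); each point is 1 library, WT in blue and KO in red. Both KO libraries lie beyond both WT libraries in each gene shown, as the choice of these genes required, and Blvrb is the most abundant in CPM.

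Junction reads gave a second reading of gene level. For 183 genes with both values, the log2 fold change of summed junction reads followed that of the gene table with a Pearson r of 0.77 and a Spearman correlation of 0.81 across genes, which are not replicates and share their libraries. On junction sums 16 of 184 genes were higher and 2 lower (Blvrb and Haus5), beside 10.6% called of all 11247 genes tested this way. The Haus5 sum includes both of its junctions counted above as lost, so its fall is not a reading of gene level apart from that loss. Sums that leave out the lost junctions were not tested. In 4 genes the 2 readings differed by more than 1 on the log2 scale. For Hamp both rose, by 3.54 in the gene table and 7.13 on junctions, the latter with 1 WT read. Bcl3 and Cblc were at 0.77 and 0.51 in the gene table and at 2.32 and 1.96 on junctions, from 48 and 59 junction reads, and passed in neither.

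Pdcd5, which encodes a small protein linked to apoptosis, was lower in both readings, but far less so on its junctions. Its gene table reads were 107 and 278 in WT and 23 and 11 in KO, a fall of 3.59 on the log2 scale with SE 0.44 (edgeR quasi-likelihood, adjusted p = 0.0067). Its 5 known junctions were read 292 and 519 times in WT and 396 and 295 times in KO, a log2 change of -0.36 (adjusted p = 0.254 in the same edgeR test). The junctions thus held more reads than the transcript's row in the gene table, 1502 against 419. Junction reads also exceeded gene table reads in Rps16 (7379 against 893), Fbl (4367 against 2092), Psenen (618 against 532) and Gmfg (524 against 487). Whether the gene table or the junctions follow the level of Pdcd5 was not tested, and its call in the gene table is uncertain. Without Pdcd5 the Pearson r was 0.84.

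**Figure D5:**
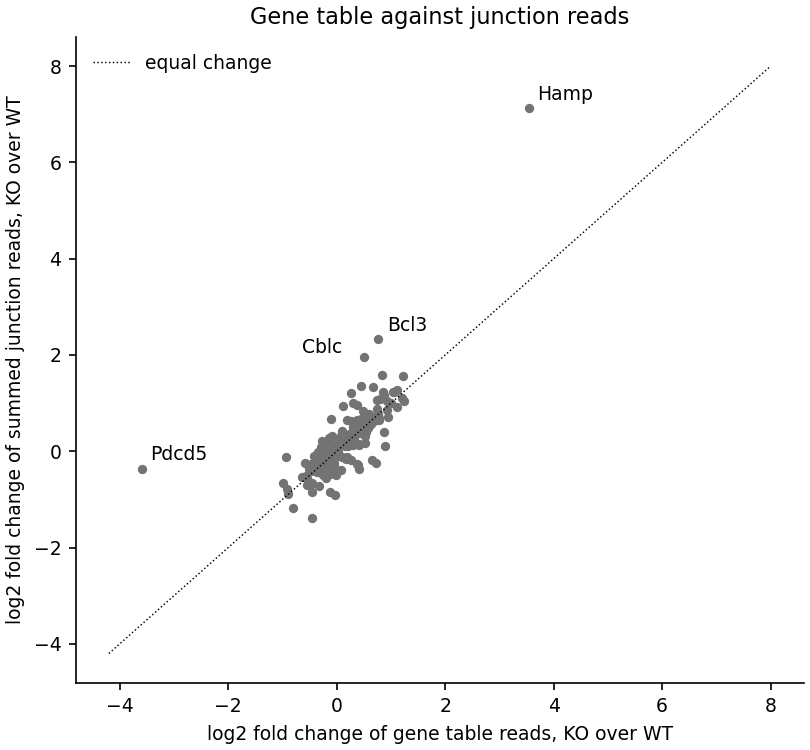
Log2 fold change of KO over WT from summed known junction reads (y axis) against that from the gene tables (x axis) for 183 genes near Hnrnpl; each point is 1 gene, the dotted line marks equal change and genes that differ by more than 1 are labelled. Most genes lie near the line, Pdcd5 is far lower in the gene table, and Hamp rises in both.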

How the data were processed

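Per the file headers, the authors counted primary alignments of mapping quality at least 10 on each transcript. They deposited read counts, coverage as reads per nt, and RPKM in the gene tables. Deposited junction counts list each junction as known or putative. The sources used here name no aligner or build. The most read transcript stood for each gene. Counts were tested with edgeR 4.0.16 (R 4.3.3, quasi-likelihood, TMM scaling, default filter for genes, at least 10 reads for junctions), over all genes or junctions, with Benjamini-Hochberg adjustment. Junction use was tested with edgeR's diffSpliceDGE in genes with at least 2 tested junctions. Alternatives used limma 3.58.1 and DESeq2, other filters and scaling, a replicate block, and each library left out. RPKM were recomputed from counts and mapped reads, and coverage was not used in a test. Scripts were tested on simulated data. Exact and Wilson intervals cover counting error only.

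Members and gene lists were chosen with earlier results of these data known. Named were genes within 250 kb of Hnrnpl, the 12 largest rises and falls past adjusted p 0.05 with mean log2 CPM at least 2 and no overlap of groups, the 3 most read genes of each list, the 5 most read and 3 longest junctions, and junctions past the usage test. Other called items were named after their values were seen. Putative junctions were only described. 1 gene that rose is not reported here.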

Additional observations from a re-analysis of the deposited data

How the results depend on the processing

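The loss of the Gpi1 junction passed the usage test in every setting run. With limma's diffSplice the usage test called 1 junction and 1 gene near Hnrnpl, and with a library left out 1 to 2 of each. The 47 genes past the gene test became 71 (47 higher, 24 lower) with every gene of at least 1 read, 55 (46 higher, 9 lower) without TMM scaling, 58 (35 higher, 23 lower) with DESeq2 and 18 (16 higher, 2 lower) on summed junction reads. With a library left out they were 17 to 33, lowest for WT replicate 2, then 19 for KO replicate 2 and 27 for WT replicate 1. Within 1 Mb, 6 became 11 with every gene of at least 1 read, 1 on junction sums and 1 to 6 with a library left out. Junctions past the read test went from 12 to 21 (15 higher, 6 lower) with limma voom, 6 (4 higher, 2 lower) with edgeR's default filter and 8 to 17 with a library left out. For KO replicate 1 left out the 8 were 1 higher and 7 lower. The median log2 fold change of 0.12 was 0.21 without TMM scaling and 0.051 to 0.16 with a library left out. The sign of values with no call turned for Sars2 (0.017), Sirt2 (0.065) and Timm50 (0.0028) without TMM scaling and for Rinl (-0.016) on junction sums. With a library left out it turned for Sars2 (-0.17 to 0.016), Sirt2 (-0.11 to 0.043), Rinl (-0.086 to 0.12) and Ercc2 (-0.010 to 0.14). With every gene of at least 1 read tested, Rps19 (adjusted p = 0.0167), Map4k1 (0.0257), Mrps12 (0.0317) and Ccne1 (0.0372) passed in edgeR, as did Zfp568 on junction sums (0.0477). Without TMM scaling the calls of Eif3k, Haus5, Opa3, Lrrc68 and 4931406P16Rik ended (edgeR, adjusted p of 0.0598 to 0.119), and with limma voom those of Hamp (0.0858), Ckm (0.104) and Ppp1r14a (0.0571). The cause of these changes was not tested. The junction sums and the default filter for junctions were chosen after seeing the data.

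The file names give 1 WT and 1 KO library a shared number in each of 2 pairs, the meaning of which is not stated, and deviations of same-numbered libraries correlated at 0.168 over 15028 genes. A fit with the replicate number as a block gave 70 genes (44 higher, 26 lower), 12 within 1 Mb, 17 junctions past the read test, 2 junctions and 3 genes past the usage test, and a median of 0.12. Under it Apoe (edgeR quasi-likelihood, adjusted p = 0.0162), Ech1 (0.0366), Mrps12 (0.0379), Ccne1 (0.0398) and Map4k1 (0.0463) passed as well.

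Depth limits these results: 849 junctions near Hnrnpl had no read and 582 had fewer than 10, and losses were counted from 30 WT reads.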
